A study of Mus musculus with 17 samples.

Results

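The libraries compared here come from male primordial germ cells of the mouse at E13.5, counted in days of embryonic development, when these cells lie within the cords of the fetal testis. There were 3 libraries with the sample code MIR and 3 with the code MC, out of 17 RNA-seq libraries in a study of primordial germ cells with or without ionizing radiation. A gene was included when its FPKM, a count of fragments divided by transcript length and library size, was at least 1 in at least 3 of these 6 libraries. That rule kept 11891 of the 23361 genes in the E13.5 table. No direction of change entered the rule, but the libraries of 1 group alone can meet it. A gene kept through 1 group alone is high there and can hardly be called the other way.

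The code and the other labels give opposite irradiation states for these libraries. The libraries coded MIR are titled noIR and their condition entry is none, whereas the libraries coded MC are titled IR with the condition ionizing radiation. The groups are therefore called by their codes, every difference is MIR minus MC, and no difference is called an effect of irradiation. The female libraries of the same table, 3 coded FIR and 3 coded FC, have titles that match their codes, although the cell type entry of FIR1 gives E11.5. Both male groups were made from total RNA of purified germ cells after subtraction of ribosomal RNA. The labels give no strain, radiation dose, time after exposure, way of purification or pooling of embryos, and do not say that replicates came from separate animals. The p-values therefore measure the spread between these samples, which may be technical.

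Primordial germ cells are the precursors of sperm and eggs, and in the fetal testis they divide until they arrest in mitosis, surrounded by Sertoli cells, the somatic cells that form the testis cords. At this stage they still use pluripotency genes such as Pou5f1 and Nanog and begin male germ cell genes such as Nanos2. The transcription factor p53 responds to DNA breaks by switching on genes of cell cycle arrest, of apoptosis and of its own inhibition, Cdkn1a, Bbc3 and Mdm2 among them.

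The 6 male libraries were estimated at 13840000 to 20980000 fragments each, and 10913 to 12174 genes reached an FPKM of 1 in a library. The first principal component of the tested genes held 88.0% of the variance and separated MIR from MC, with MIR2 lying between the other MIR libraries and MC. The Y-linked genes Ddx3y, Kdm5d, Uty and Eif2s3y were detected in all 6 libraries, at 6.54 to 156 FPKM. Xist, the RNA of the inactive X chromosome, was at 0.130 to 0.281 FPKM. The libraries thus carry the RNA of a male.

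Germ cell markers were present in every library, and none of the 14 was at 0. Their summed level was lower in MIR, at 1519, 2881 and 2007 FPKM in MIR1, MIR2 and MIR3, than in MC, at 4590, 4315 and 4732 FPKM. Markers of Sertoli cells went the other way. The 20 Sertoli markers summed to 5827, 1698 and 5437 FPKM in MIR1, MIR2 and MIR3 and to 125.5, 181.3 and 194.7 FPKM in MC1, MC2 and MC3. No Sertoli marker was at 0 in any of the 6 libraries. MIR1 and MIR3 thus stand apart from MIR2 in Sertoli RNA, and MIR2 stands apart from MC. Counts are also given for MIR2 alone against the 3 MC libraries, a fit in which the lone MIR library is assumed to vary like the other groups. In bulk RNA, fewer germ cells and less germ cell RNA per cell cannot be told apart.

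**Figure D1:**
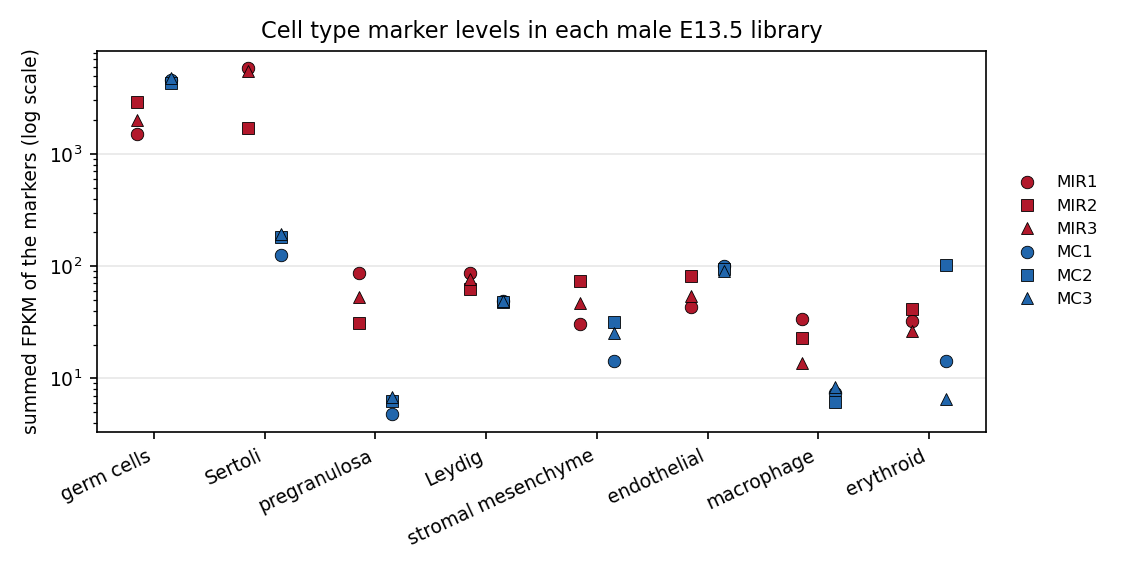
Summed FPKM of the markers of each cell type (log axis) in the 3 MIR libraries (red) and the 3 MC libraries (blue), with replicates 1, 2 and 3 as circles, squares and triangles. Sertoli markers lie between 1698 and 5827 FPKM in MIR and between 125.5 and 194.7 FPKM in MC, while germ cell markers lie between 1519 and 2881 FPKM in MIR and between 4315 and 4732 FPKM in MC.

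At an adjusted p below 0.05, 3370 genes were higher and 3960 were lower in MIR than in MC. The calls made up 61.6% of the genes tested, with 28.3% higher and 33.3% lower, so a call of itself says little about any one gene. The 3 MIR and 3 MC values did not overlap for 65.8% of the genes. More than a 2-fold change, on the log2(FPKM + 1) scale used throughout for changes, was seen for 1802 of the higher genes and 400 of the lower ones. Beyond 4-fold there were 661 higher genes and 2 lower ones. With MIR2 alone against MC, 1872 genes (15.7%) were higher and 1673 (14.1%) were lower. The median change of all tested genes was -0.08.

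Within MIR, the largest changes were mostly smallest in MIR2, the library with the least Sertoli RNA. Of the 1802 genes higher by more than 2-fold, MIR2 was the lowest MIR library for 1620, or 89.9%, against 43.6% of all genes tested. Of the 400 genes lower by more than 2-fold, MIR2 was the highest MIR library for 351, or 87.8%, against 40.9% of all genes tested. When each library was scaled to its germ cell markers, a choice made after the values were seen, the median of all genes moved by 1.12, with 84% of genes higher and 0.168% lower. Medians of gene groups are therefore also given relative to the median of all tested genes, which such a scaling leaves alone.

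Genes that p53 is known to switch on were mostly higher in MIR. Of 66 genes listed, 63 were in the table and 59 were tested. Among these 59 genes, 43 (against 28.3% of all genes) were higher in MIR, 6 were lower (against 33.3%) and 10 did not pass the test. The median change was 0.998, which is 1.07 above the median of all genes. With MIR2 alone, 35 were higher and 2 lower, with a median of 0.98. MIR2 was the lowest MIR library for 28 of the 59 and the highest for 24. The list was written with earlier results of these data known, so its direction is not independent evidence.

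To show the sequences at these genes, promoter windows of 250 bases before to 50 bases after each annotated start were taken from RefSeq on GRCm38.p6 and searched for the p53 consensus site. The site is a pair of p53 half-sites of 10 bases each, at most 3 bases apart, searched with up to 2 mismatches over the 20 bases and with the central C and G of each half-site kept. The half-site reads the same on both strands, so one search covers both. At least 1 window was at hand for 50 of the 59 tested p53 targets, and 7 of these 50 (14%) had a site, against 1.71% of the 8894 tested genes with a window and 1.55% of all 27025 genes with one. The 7 were Bax, Ccng1, Cd80, Cdkn1a, Ckap2, Rps27l and Sesn1, of which Bax and Ckap2 did not pass the test. Among the 38 p53 targets with a window that were higher in MIR, 5 (13.2%) had a site, about the same share as in the list. A match describes letters and is not evidence of binding, and these targets are known in part for such sites. The windows below, in the direction of transcription, belong to 4 targets that were higher in MIR and to Bax, which did not pass the test. Capitals mark the p53 site.
Ccng1, chr11:40755237-40755536, minus strand: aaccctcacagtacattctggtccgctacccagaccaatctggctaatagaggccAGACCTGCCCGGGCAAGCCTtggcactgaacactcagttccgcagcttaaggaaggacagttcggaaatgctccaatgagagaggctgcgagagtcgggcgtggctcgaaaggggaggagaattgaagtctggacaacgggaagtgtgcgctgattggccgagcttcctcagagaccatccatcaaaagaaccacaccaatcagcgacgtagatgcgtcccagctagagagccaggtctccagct
Cdkn1a, chr17:29090729-29091028, plus strand: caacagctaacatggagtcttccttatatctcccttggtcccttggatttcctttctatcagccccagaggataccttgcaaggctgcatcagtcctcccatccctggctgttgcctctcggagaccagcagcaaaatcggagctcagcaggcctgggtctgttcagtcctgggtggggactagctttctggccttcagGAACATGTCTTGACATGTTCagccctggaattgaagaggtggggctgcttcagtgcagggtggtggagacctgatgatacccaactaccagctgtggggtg
Sesn1, chr10:41887189-41887488, plus strand: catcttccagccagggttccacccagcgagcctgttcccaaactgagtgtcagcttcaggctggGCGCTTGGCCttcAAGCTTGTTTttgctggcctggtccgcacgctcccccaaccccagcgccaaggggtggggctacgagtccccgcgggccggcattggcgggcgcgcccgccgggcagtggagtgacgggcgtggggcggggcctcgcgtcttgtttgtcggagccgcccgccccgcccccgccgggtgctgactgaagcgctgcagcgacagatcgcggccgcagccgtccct
Rps27l, chr9:66946163-66946462, plus strand: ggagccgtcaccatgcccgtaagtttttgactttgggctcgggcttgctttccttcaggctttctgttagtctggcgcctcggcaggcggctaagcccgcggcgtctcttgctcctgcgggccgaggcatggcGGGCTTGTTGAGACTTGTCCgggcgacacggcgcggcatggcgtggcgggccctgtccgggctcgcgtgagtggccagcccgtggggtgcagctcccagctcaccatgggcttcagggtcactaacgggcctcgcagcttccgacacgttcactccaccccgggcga
Bax, chr7:45466849-45467148, minus strand: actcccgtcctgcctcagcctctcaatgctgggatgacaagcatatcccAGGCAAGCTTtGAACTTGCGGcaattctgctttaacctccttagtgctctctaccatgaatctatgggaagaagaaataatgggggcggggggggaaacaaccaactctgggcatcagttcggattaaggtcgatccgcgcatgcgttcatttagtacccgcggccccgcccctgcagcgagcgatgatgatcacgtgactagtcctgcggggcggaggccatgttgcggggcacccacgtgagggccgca
The site lay 195 to 176 bases before the start of Ccng1 and 51 to 32 bases before a start of Cdkn1a, each with 1 mismatch and no spacer. It began 117 bases before a start of Rps27l with 1 mismatch, 186 bases before a start of Sesn1 with 2 mismatches and a spacer of 3 bases, and 201 bases before the start of Bax with 2 mismatches and a spacer of 1 base.

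Ccng1 (chr11:40748552-40755311, minus strand on GRCm38), which encodes cyclin G1, was at 284, 218 and 248 FPKM in MIR1, MIR2 and MIR3 and at 40.8, 35.3 and 36.5 FPKM in MC1, MC2 and MC3. The groups were far apart and the MIR libraries close together. Its change was 2.70 ± 0.11 (SE, n = 3 and 3; adjusted p = 2.64e-08). Cdkn1a (chr17:29090976-29100727, plus strand), which encodes the cell cycle inhibitor p21, was at 56.4, 57.6 and 65.7 FPKM in MIR and at 19.1, 14.98 and 15.2 FPKM in MC. All 3 MIR libraries lay near each other, and the lowest was at 2.96 times the highest MC library. Its change was 1.81 ± 0.15 (adjusted p = 3.61e-06). Mdm2 (chr10:117688875-117710758, minus strand), the ubiquitin ligase that degrades p53, was at 110, 171 and 133 FPKM in MIR and at 88.3, 86.1 and 88.0 FPKM in MC. Here MIR2 was the highest library and the change was smaller, 0.63 ± 0.17 (adjusted p = 0.00612). Trp53 itself was lower in MIR, at 57.5, 72.8 and 60.3 FPKM against 130, 131 and 120 FPKM in MC, a change of -0.998 ± 0.12 (adjusted p = 3.43e-05), which turned to 0.13 when scaled to germ cell markers.

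The smallest adjusted p-values of the list belonged to Dcxr, Ephx1, Ccng1 and Eda2r. Dcxr, which encodes a sugar and carbonyl reductase, was at 56.4, 40.4 and 55.1 FPKM in MIR and at 2.60, 2.79 and 3.42 FPKM in MC, a change of 3.70 ± 0.15 (adjusted p = 2.64e-08). Ephx1, which encodes an epoxide hydrolase, was at 16.4, 15.9 and 16.1 FPKM in MIR and at 1.51, 1.72 and 1.71 FPKM in MC, a change of 2.70 ± 0.11 (adjusted p = 2.64e-08). For Ephx1 the highest MIR library was at 1.03 times the lowest, and the part of the Sertoli RNA in this gene was not tested. Eda2r, a receptor of the tumour necrosis factor family, was at 47.4, 40.9 and 40.5 FPKM in MIR and at 9.53, 8.80 and 9.997 FPKM in MC, a change of 2.07 ± 0.11 (adjusted p = 2.68e-07).

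Several p53 targets were highest in MIR2 or MIR3 and are named here after their values were seen. Btg2, an antiproliferative gene, was at 61.9, 71.1 and 145 FPKM in MIR and at 8.43, 8.85 and 7.46 FPKM in MC, a change of 3.24 ± 0.31 (adjusted p = 8.97e-06). Plk2, a polo-like kinase, was at 35.6, 53.7 and 57.7 FPKM in MIR and at 5.98, 5.03 and 4.28 FPKM in MC, a change of 3.02 ± 0.24 (adjusted p = 3.52e-06). Perp, a membrane protein of p53-dependent apoptosis, was at 23.9, 32.9 and 28.8 FPKM in MIR and at 6.12, 3.87 and 3.73 FPKM in MC, a change of 2.42 ± 0.21 (adjusted p = 6.04e-06). In these 3 genes MIR1, with the most Sertoli RNA, was the lowest MIR library. The part of that RNA in them was not tested. In Fdxr, which encodes ferredoxin reductase, MIR1 was the highest and MIR2 the lowest MIR library, with 77.1, 29.1 and 61.7 FPKM in MIR against 5.42, 5.49 and 7.45 FPKM in MC. Sesn1 and Rps27l, whose windows are printed above, had changes of 0.80 ± 0.21 (adjusted p = 0.00595) and 0.36 ± 0.13 (adjusted p = 0.0307). The adjusted p of Rps27l was 0.0663, 0.0959, 0.114 and 0.0638 without MIR2, MIR3, MC2 and MC3.

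**Figure D2:**
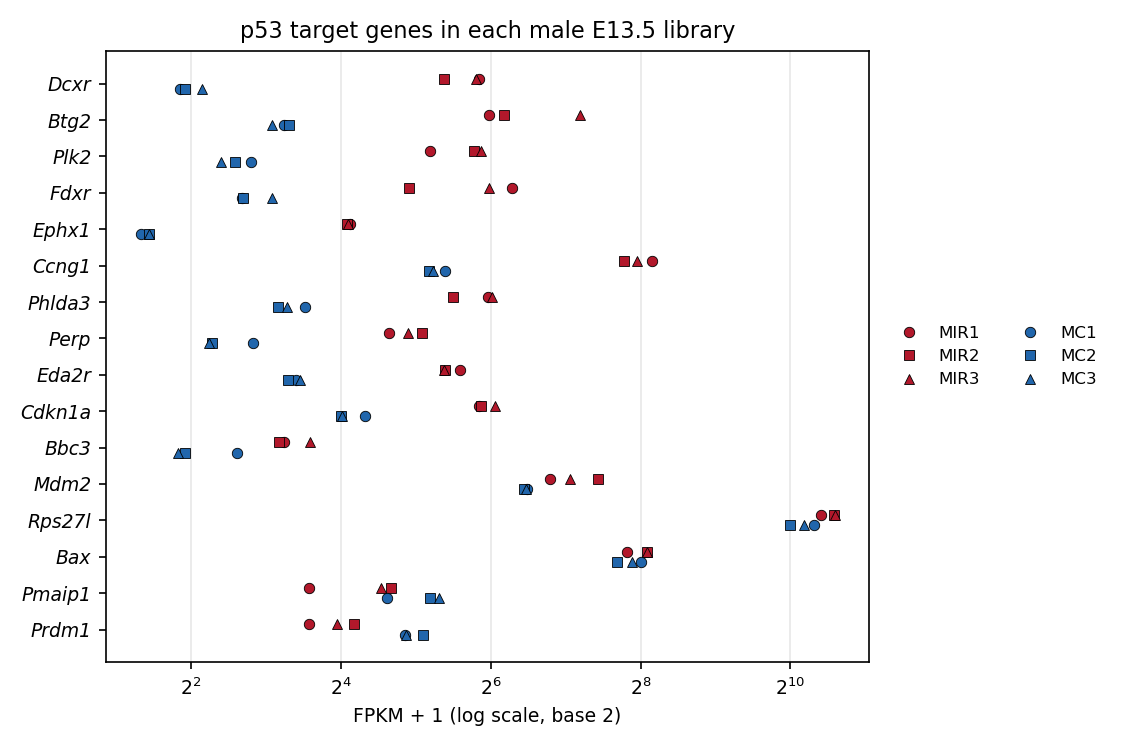
FPKM + 1 (log axis, base 2) of 16 p53 targets in each of the 3 MIR libraries (red) and the 3 MC libraries (blue), with replicates as circles, squares and triangles. Ccng1 lies between 218 and 284 FPKM in MIR and between 35.3 and 40.8 FPKM in MC, Bax overlaps between the groups, and Prdm1 and Pmaip1 lie lower in MIR, with an overlap in Pmaip1, but turn to 0.078 and 0.35 when scaled to germ cell markers.

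The 6 p53 targets that were lower in MIR were Prdm1, Fbxo22, Pmaip1, Xpc, Ascc3 and Dcp1b. Their changes ran from -1.05 ± 0.16 in Prdm1 (adjusted p = 0.000197), a regulator that specifies germ cells, to -0.37 ± 0.13 in Dcp1b (adjusted p = 0.0285), a subunit of the mRNA decapping machinery. Scaled to germ cell markers, Prdm1, Fbxo22, Xpc, Ascc3 and Dcp1b were at 0.078, 0.22, 0.59, 0.65 and 0.76. The adjusted p of Dcp1b was 0.0508, 0.0984, 0.0687 and 0.0739 without MIR1, MIR3, MC2 and MC3. Pmaip1 encodes Noxa, a BH3-only protein that triggers apoptosis. It was at 10.9, 24.5 and 22.2 FPKM in MIR and at 23.4, 35.6 and 38.5 FPKM in MC, so MIR2 overlapped MC1, and its change of -0.78 ± 0.30 (adjusted p = 0.0401) turned to 0.35 when scaled to germ cell markers. Its adjusted p was 0.189, 0.112 and 0.133 without MIR1, MC2 and MC3. With MIR2 alone 2 members were lower.

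Genes of apoptosis, several of them also p53 targets, were called in both directions as measured, but none was lower when scaled to germ cell markers. Of 33 tested members of the BCL2 family and the apoptosis machinery, 15 were higher in MIR (against 28.3% of all genes). Another 5 were lower (Pmaip1, Endog, Bmf, Birc5 and Aifm1), against 33.3% of all genes, and 13 did not pass. The median change was 0.30, or 0.37 above that of all genes. The 5 lower members became 1 without MIR1, 2 without MC1, 3 without MC2 and 2 without MC3. With MIR2 alone the list median was 0.21. Scaled to germ cell markers, 30 were higher and 0 lower, against 84% and 0.168% of all genes, with a median of 1.42. Bbc3, which encodes the BH3-only protein Puma, was at 8.47, 8.04 and 11.1 FPKM in MIR and at 5.12, 2.77 and 2.55 FPKM in MC, a change of 1.22 ± 0.26 (adjusted p = 0.0015). Apaf1, the core of the apoptosome, was at 25.6, 28.6 and 23.9 FPKM in MIR and at 10.8, 12.3 and 10.8 FPKM in MC, a change of 1.14 ± 0.11 (adjusted p = 8.36e-06). In both genes MIR2 was level with the other MIR libraries.

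Casp8, Fas and Bok were ordered like the Sertoli markers within MIR, with MIR2 lowest. Casp8, the initiator caspase of the death receptor route, was at 14.6, 4.96 and 11.99 FPKM in MIR and at 0.405, 0.516 and 0.722 FPKM in MC, a change of 2.79 ± 0.32 (adjusted p = 3.21e-05). Fas, a death receptor, was at 5.37, 2.78 and 4.29 FPKM in MIR, and in MC it was listed at 0 in MC1 and reached 0.445 FPKM. Bok, a BAX-like protein, was at 28.6, 9.10 and 25.8 FPKM in MIR and at 3.53, 2.46 and 3.59 FPKM in MC. The part of the Sertoli RNA in these 3 genes was not tested. Bax, the pore-forming effector of apoptosis, was at 225, 272 and 270 FPKM in MIR and at 255, 205 and 236 FPKM in MC, overlapping groups with a change of 0.14 ± 0.13 (adjusted p = 0.349).

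Mitotic genes were lower in MIR as measured, and turned to the other side when scaled to germ cell markers. All 40 genes of G2/M and mitosis were tested, and 34 were lower (against 33.3% of all genes) and 6 did not pass, with a median of -0.64. By limma 0 were higher, also at an unadjusted p below 0.05. That is 0.56 below the median of all genes, and on the germ cell scale the list's own median was 0.49. MIR2 was the highest MIR library for 39 of the 40, and with MIR2 alone 13 were lower. The summed level of the list was 2118, 3110 and 2275 FPKM in MIR and 3866, 3940 and 4015 FPKM in MC, the same order as the germ cell markers.

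Many mitotic genes carry the hexamer TTTGAA, the core of the cell cycle element that the DREAM and MuvB complexes are known to read, and promoter windows of 3 mitotic genes called lower in MIR, before scaling to germ cell markers, are shown for that reason. Capitals mark TTTGAA or, on the other strand, TTCAAA.
Ccnb2, chr9:70421505-70421804, minus strand: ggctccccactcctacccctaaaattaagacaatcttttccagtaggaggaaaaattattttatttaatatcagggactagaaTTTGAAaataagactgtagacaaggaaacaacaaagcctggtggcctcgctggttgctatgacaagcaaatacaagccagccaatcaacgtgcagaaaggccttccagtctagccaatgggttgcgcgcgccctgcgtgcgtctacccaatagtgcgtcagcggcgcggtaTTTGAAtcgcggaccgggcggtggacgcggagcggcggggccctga
Plk1, chr7:122159185-122159484, plus strand: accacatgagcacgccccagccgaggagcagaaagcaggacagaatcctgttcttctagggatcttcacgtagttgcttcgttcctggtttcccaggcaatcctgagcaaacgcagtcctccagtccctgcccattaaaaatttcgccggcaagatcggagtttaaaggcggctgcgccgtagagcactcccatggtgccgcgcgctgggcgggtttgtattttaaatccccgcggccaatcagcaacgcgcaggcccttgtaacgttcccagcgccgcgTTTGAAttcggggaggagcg
Top2a, chr11:99024140-99024439, minus strand: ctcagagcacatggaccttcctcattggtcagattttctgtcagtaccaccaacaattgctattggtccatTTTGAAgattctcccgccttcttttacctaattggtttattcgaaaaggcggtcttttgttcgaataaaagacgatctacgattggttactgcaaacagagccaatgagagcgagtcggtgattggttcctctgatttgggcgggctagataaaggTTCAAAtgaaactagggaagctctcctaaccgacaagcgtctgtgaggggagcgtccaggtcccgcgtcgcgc
The hexamer was in a window of 24 of the 32 tested mitotic genes with a window (75%), against 13.7% of the tested genes with a window and 20.2% of all genes with one. It was also in a window of 9 of 50 p53 targets (18%), and it overlapped the p53 site in the Bax window. In the Ccnb2 window it occurred 167 to 162 bases before the start and again at bases 5 to 10 of the transcript. In the Plk1 window it stood at bases 31 to 36 of the transcript. In the Top2a window it occurred 179 and 23 bases before the start.

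Ccnb2, a B-type cyclin of mitosis, was at 68.9, 104 and 79.0 FPKM in MIR and at 150, 153 and 162 FPKM in MC, a change of -0.90 ± 0.14 (adjusted p = 0.000184) that was 0.23 when scaled to germ cell markers. Plk1, the polo-like kinase of mitotic entry, was at 25.6, 32.3 and 28.9 FPKM in MIR and at 47.6, 55.2 and 49.5 FPKM in MC, a change of -0.79 ± 0.10 (adjusted p = 6.44e-05) that was 0.33 when scaled to germ cell markers. The groups did not overlap in either gene, as was so for 65.8% of all genes tested. Ncapd2, a condensin subunit, was at 35.4, 45.04 and 37.7 FPKM in MIR and at 71.2, 79.1 and 72.2 FPKM in MC, and Kif2c and Cdca8, of the kinetochore and the chromosomal passenger complex, changed by -0.88 ± 0.12 (adjusted p = 0.000105) and -0.95 ± 0.14 (adjusted p = 0.000153). Ncapd2, Kif2c and Cdca8 were at 0.22, 0.25 and 0.17 when scaled to germ cell markers, and Top2a, a topoisomerase of replicating cells, was at 0.45. Cdk1, the kinase that drives mitosis, went from 73.4, 62.7 and 70.7 FPKM in MC to 51.4, 60.7 and 52.0 FPKM in MIR, with a change of -0.33 ± 0.09 (adjusted p = 0.00806), and it was 0.80 when scaled to germ cell markers. Ccnb1, its cyclin, changed by -0.75 ± 0.15 (adjusted p = 0.000942), or 0.38 on that scale.

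Genes of DNA replication were lower in MIR like the mitotic ones, again not on the germ cell scale, with a few regulators of G1 going the other way. Of 53 tested genes of G1/S and replication, 39 were lower (against 33.3% of all genes), 4 were higher (against 28.3%) and 10 did not pass. The median was -0.60, which is 0.53 below that of all genes and 0.52 above 0 when scaled to germ cell markers. With MIR2 alone the list median was -0.32, or 0.24 below that of all genes. Cdk2, the S-phase kinase, was at 18.6, 20.8 and 19.4 FPKM in MIR and at 31.7, 35.0 and 33.0 FPKM in MC, a change of -0.73 ± 0.10 (adjusted p = 8.47e-05) that was 0.39 when scaled to germ cell markers.

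The 4 higher genes were Ccnd2, Ccnd1, Rbl2 and Rb1. Ccnd2, a D-type cyclin, was at 28.3, 12.4 and 25.4 FPKM in MIR and at 1.35, 1.79 and 2.50 FPKM in MC, a change of 2.94 ± 0.31 (adjusted p = 1.63e-05), in the order of the Sertoli markers. Ccnd1, another D-type cyclin, was at 7.33, 4.89 and 5.33 FPKM in MIR and at 0.862, 1.68 and 1.32 FPKM in MC, a change of 1.58 ± 0.19 (adjusted p = 3.94e-05). Rbl2, a pocket protein of the DREAM complex, was at 7.60, 4.71 and 4.85 FPKM in MIR and at 1.26, 1.40 and 1.41 FPKM in MC, a change of 1.49 ± 0.17 (adjusted p = 3.27e-05). Rb1, the pocket protein that holds germ cells in G1 arrest, was highest in MIR2, at 53.5 FPKM, with 37.8 and 43.4 FPKM in MIR1 and MIR3 and 28.8, 37.8 and 35.1 FPKM in MC, and its change of 0.39 ± 0.15 had an adjusted p of 0.0388 by limma. That adjusted p was 0.134, 0.0698, 0.154 and 0.0638 without MIR2, MIR3, MC1 and MC3. Of the inhibitors that mark this arrest, Cdkn1c (p57) was higher in MIR, at 49.3, 26.3 and 37.4 FPKM against 10.4, 16.6 and 11.6 FPKM in MC, a change of 1.46 ± 0.24 (adjusted p = 0.000328). Cdkn1b (p27) was at 13.7, 7.11 and 11.7 FPKM in MIR and at 11.0, 12.7 and 11.4 FPKM in MC, overlapping groups with a change of -0.15 ± 0.33 (adjusted p = 0.715).

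DNA damage sensing and repair genes were mostly lower in MIR, though not when scaled to germ cell markers. Of 68 tested, 47 were lower (against 33.3% of all genes), 2 were higher (against 28.3%) and 19 did not pass. The median was -0.53, which is 0.45 below that of all genes and 0.60 above 0 when scaled to germ cell markers. With MIR2 alone the list median was -0.31, or 0.23 below that of all genes. Without MIR2, 4 were higher. The 2 higher genes were Ercc5 and Rad51d. Ercc5 (chr1:44147744-44181260, plus strand), the endonuclease XPG of nucleotide excision repair, was at 25.1, 19.98 and 22.1 FPKM in MIR and at 4.44, 5.06 and 4.496 FPKM in MC, a change of 2.04 ± 0.12 (adjusted p = 4.05e-07). Rad51d, a gene of homologous recombination, was at 3.52, 4.33 and 3.36 FPKM in MIR and at 1.86, 1.67 and 1.91 FPKM in MC, a change of 0.75 ± 0.12 (adjusted p = 0.000319). The highest MIR library was at 1.26 times the lowest for Ercc5 and at 1.29 times for Rad51d. The part of the Sertoli RNA in these 2 genes was not tested.

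Among the lower repair genes, Apex1, the abasic site endonuclease, was at 38.8, 37.2 and 38.4 FPKM in MIR and at 70.9, 64.5 and 57.5 FPKM in MC, a change of -0.73 ± 0.10 (adjusted p = 0.000105). It was level over the MIR libraries. Rnf8, a ubiquitin ligase at DNA breaks, and Atm, the kinase that senses them, changed by -0.75 ± 0.10 (adjusted p = 5.64e-05) and -0.66 ± 0.13 (adjusted p = 0.000951). When scaled to germ cell markers, Apex1, Rnf8 and Atm were at 0.39, 0.37 and 0.46.

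**Figure D3:**
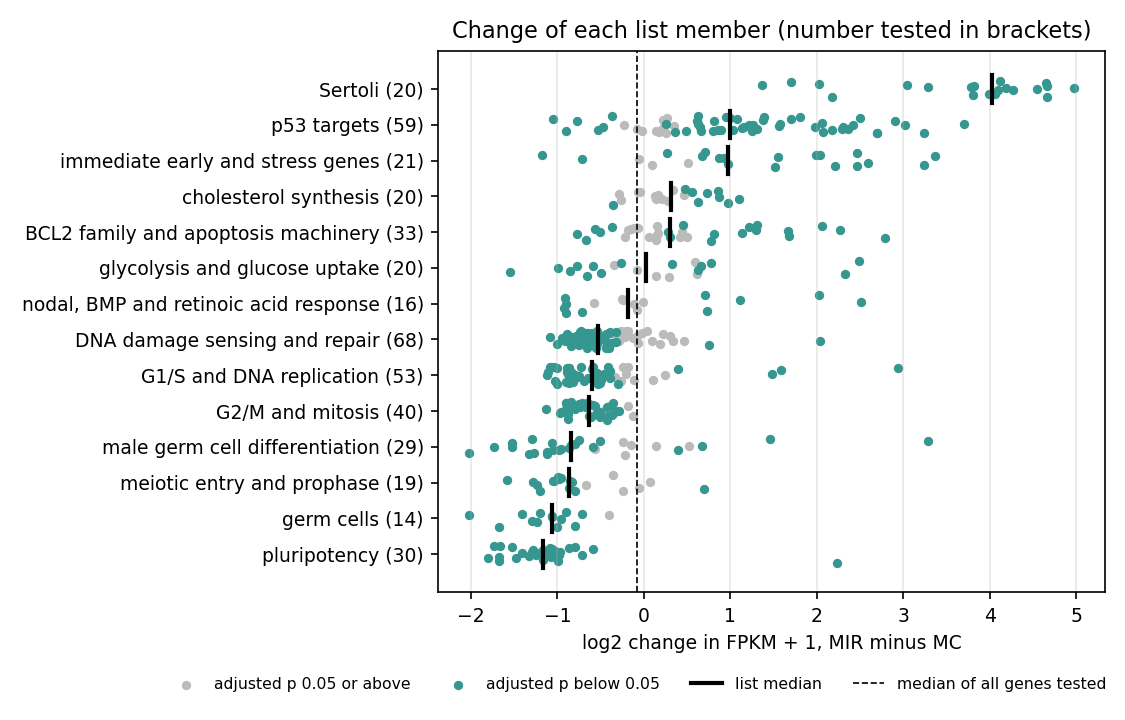
The log2 change in FPKM + 1, MIR minus MC, of each tested member of 14 lists (points, with those at an adjusted p below 0.05 in green), the list medians (black bars) and the median of all genes (dashed line). The list medians run from 4.02 for Sertoli markers and 0.998 for p53 targets to -1.17 for pluripotency genes. Scaling to germ cell markers adds about 1.12 to every one. It lifts above 0 the medians of the repair, G1/S, G2/M, male germ cell, meiotic, Nodal, BMP and retinoic acid, and germ cell marker lists.

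Pluripotency genes had the lowest median of the lists. Of 30 tested, 29 were lower in MIR (against 33.3% of all genes) and 1, Klf4, was higher (against 28.3%). The median was -1.17, or 1.09 below that of all genes. With MIR2 alone 22 were lower and 1 higher, with a median of -0.70. The list median was -0.04 when scaled to germ cell markers, with 6 members lower and 1 higher. Pou5f1 (chr17:35506018-35510772, plus strand), which encodes OCT4, was at 268, 571 and 352 FPKM in MIR and at 882, 725 and 762 FPKM in MC, a change of -1.06 ± 0.22 (adjusted p = 0.00141). Nanog (chr6:122707489-122714633, plus strand) was at 28.7, 53.5 and 38.2 FPKM in MIR and at 96.3, 90.6 and 94.6 FPKM in MC, a change of -1.25 ± 0.16 (adjusted p = 6.75e-05). In both, MIR2 lay nearest to MC, as the germ cell markers did. Sox2, the partner of OCT4, changed by -0.96 ± 0.23 (adjusted p = 0.00285), and Pou5f1 and Sox2 were at 0.067 and 0.16 when scaled to germ cell markers.

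Fbxo15, Tcl1, Gdf3 and Tdgf1 had the smallest adjusted p-values among pluripotency genes. Fbxo15, a target of OCT4, was at 16.5, 27.7 and 20.7 FPKM in MIR and at 69.1 FPKM in each MC library, a change of -1.66 ± 0.14 (adjusted p = 5.33e-06). Tcl1, a coactivator of AKT, was at 19.1, 30.3 and 27.7 FPKM in MIR and at 76.8, 84.8 and 86.9 FPKM in MC, a change of -1.67 ± 0.16 (adjusted p = 9.93e-06). Gdf3 and Tdgf1, a ligand and a co-receptor of the Nodal pathway, changed by -1.80 ± 0.18 (adjusted p = 1.15e-05) and -1.53 ± 0.20 (adjusted p = 6.13e-05). Klf4 was at 13.1, 11.6 and 32.7 FPKM in MIR and at 2.16, 3.69 and 2.96 FPKM in MC, a change of 2.23 ± 0.33 (adjusted p = 0.000147), and like the early response genes described further on it was highest in MIR3.

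The markers of germ cell identity were lower in MIR unless scaled to themselves, 13 of 14 of them (against 33.3% of all genes). Tfap2c was the exception, and the median was -1.06, or 0.99 below that of all genes. With MIR2 alone 5 were lower. Dazl, an RNA-binding protein that licenses germ cells, was at 271, 548 and 316 FPKM in MIR and at 745, 726 and 800 FPKM in MC, a change of -1.07 ± 0.22 (adjusted p = 0.0014), or 0.059 on the germ cell scale that it helps to define. Ddx4, the VASA helicase, changed by -1.01 ± 0.20 (adjusted p = 0.00089), or 0.12 on that scale, and Dppa3, also called Stella, by -1.20 ± 0.20 (adjusted p = 0.000275). Dnd1 fell furthest. Dnd1, the cofactor of NANOS2 that protects male germ cells, was at 14.5, 24.8 and 25.1 FPKM in MIR and at 96.9, 82.6 and 85.2 FPKM in MC, a change of -2.03 ± 0.19 (adjusted p = 7.71e-06). Kit, the receptor on which their survival depends, was at 24.2, 45.9 and 32.1 FPKM in MIR and at 83.7, 96.8 and 86.4 FPKM in MC, a change of -1.40 ± 0.18 (adjusted p = 5.33e-05). Sall4 changed by -1.67 ± 0.23 (adjusted p = 9.44e-05).

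Of 29 tested genes of male germ cell differentiation, 19 were lower (against 33.3% of all genes), 4 were higher (against 28.3%) and 6 did not pass. The median was -0.85, which is 0.77 below that of all genes and 0.28 above 0 when scaled to germ cell markers. With MIR2 alone 7 were lower and 3 higher, and without MIR3 or MC3 2 were higher. Nodal and its antagonists Lefty1 and Lefty2 belong to the Nodal signal that male germ cells are known to use at this stage. Lefty2 was at 29.4, 64.3 and 45.01 FPKM in MIR and at 159, 139 and 148 FPKM in MC, a change of -1.73 ± 0.23 (adjusted p = 8.17e-05). Lefty1 was at 18.3, 29.4 and 29.4 FPKM in MIR and at 57.1, 71.3 and 65.5 FPKM in MC, a change of -1.32 ± 0.19 (adjusted p = 0.000117). Nodal, named after its values were seen, was at 10.6, 17.5 and 14.9 FPKM in MIR and at 23.3, 23.0 and 19.1 FPKM in MC, a change of -0.59 ± 0.16 (adjusted p = 0.00733) that was 0.53 when scaled to germ cell markers. The groups did not overlap in any of these 3 genes, as was so for 65.8% of all genes tested.

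Nanos2 (chr7:18987400-18988962, plus strand), the RNA-binding protein that commits germ cells to the male fate, was at 0.365, 0.659 and 0.586 FPKM in MIR and at 1.73, 5.59 and 3.74 FPKM in MC, a change of -1.52 ± 0.26 (adjusted p = 0.000332). Its level was low in all 6 libraries and varied 3.24-fold within MC. Nanos3, which protects migrating germ cells, was at 5.26, 8.26 and 6.51 FPKM in MIR and at 15.8, 11.1 and 14.6 FPKM in MC, a change of -0.96 ± 0.23 (adjusted p = 0.00342) that was 0.17 when scaled to germ cell markers. Cyp26b1, the enzyme that destroys retinoic acid in the fetal testis, was higher, at 30.0, 8.89 and 23.2 FPKM in MIR against 0.734, 0.938 and 1.38 FPKM in MC, a change of 3.29 ± 0.32 (adjusted p = 9.78e-06). It is also one of the Sertoli markers and had their order over the MIR libraries.

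Meiotic genes, which female germ cells switch on at this age, were not higher in MIR as a group. Of 19 tested, 13 were lower (against 33.3% of all genes) and 1, Rec8, was higher (against 28.3%). The median was -0.87, or 0.79 below that of all genes and 0.25 above 0 when scaled to germ cell markers. With MIR2 alone the list median was -0.45, or 0.37 below that of all genes. Sycp3, of the synaptonemal complex, was at 30.2, 62.8 and 33.4 FPKM in MIR and at 76.5, 55.8 and 80.9 FPKM in MC, overlapping groups with a change of -0.80 ± 0.29 (adjusted p = 0.0291) that was 0.32 when scaled to germ cell markers. Its adjusted p was 0.117, 0.0995, 0.083 and 0.0942 without MIR1, MIR3, MC1 and MC3. Syce2, of its central element, was at 71.7, 123 and 83.7 FPKM in MIR and at 228, 194 and 206 FPKM in MC, a change of -1.20 ± 0.20 (adjusted p = 0.000342). Stra8, the trigger of meiotic entry, stayed under 1 FPKM in all 6 libraries, between 0.217 and 0.977, and was not tested.

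The genes of the Nodal, BMP and retinoic acid response were called at about the rate of all genes. Of 16 tested, 5 were higher (against 28.3% of all genes), 5 were lower (against 33.3%) and 6 did not pass, with a median of -0.18, or 0.10 below that of all genes. With MIR2 alone 3 were higher and 2 lower. The 5 lower genes became 2 without MIR1 or MC1 and 3 without MIR3 or MC3. Id1 (chr2:152736251-152737410, plus strand), an inhibitor of basic helix-loop-helix factors and a direct BMP target, was at 18.6, 12.1 and 52.2 FPKM in MIR and at 3.40, 2.82 and 3.38 FPKM in MC, a change of 2.51 ± 0.38 (adjusted p = 0.000162). Id2 was at 30.4, 20.7 and 47.1 FPKM in MIR and at 6.76, 6.57 and 7.36 FPKM in MC, a change of 2.02 ± 0.21 (adjusted p = 1.66e-05). Both were highest in MIR3 and lowest in MIR2. Zglp1, a transcription factor of the oogenic fate, was lower, at 3.76, 6.40 and 4.82 FPKM in MIR and 11.2, 8.35 and 11.3 FPKM in MC, a change of -0.92 ± 0.17 (adjusted p = 0.000633) that was 0.20 when scaled to germ cell markers.

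Most early response and stress genes were higher in MIR. Of 21 tested, 16 were higher (against 28.3% of all genes), 2 were lower (Hsph1 and Trib3, against 33.3%) and 3 did not pass. The median was 0.98, or 1.05 above that of all genes. With MIR2 alone 11 were higher and 1 lower. Egr1, a zinc finger factor induced by growth signals, was at 45.9, 39.8 and 121 FPKM in MIR and at 3.91, 6.20 and 5.04 FPKM in MC, a change of 3.37 ± 0.36 (adjusted p = 1.76e-05). Fos was at 47.4, 58.5 and 188 FPKM in MIR and at 6.15, 9.50 and 7.68 FPKM in MC, a change of 3.24 ± 0.46 (adjusted p = 0.000121). Junb was at 14.7, 10.5 and 29.8 FPKM in MIR and at 2.73, 1.95 and 1.98 FPKM in MC, a change of 2.47 ± 0.29 (adjusted p = 3.42e-05). In these 3 genes MIR3 stood at 2.64, 3.22 and 2.03 times the next highest MIR library.

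Hmox1, the haem oxygenase of oxidative stress, was at 51.3, 32.9 and 56.9 FPKM in MIR and at 9.47, 11.0 and 11.0 FPKM in MC, a change of 2.03 ± 0.17 (adjusted p = 4.23e-06). Gadd45g, a stress gene that also acts in testis determination in mice, was at 21.0, 8.57 and 15.6 FPKM in MIR and at 1.65, 1.43 and 2.24 FPKM in MC, a change of 2.46 ± 0.26 (adjusted p = 1.66e-05). Gadd45g and Hmox1 were lowest in MIR2.

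Smaller groups gave mixed results. Of 6 tested interferon response genes, 2 were higher and 2 were lower, near the 28.3% and 33.3% of all genes. Ifi35 was among the higher ones (1.68 ± 0.20, adjusted p = 4.31e-05). The lower ones were Ddx58, which encodes the RNA sensor RIG-I, and Isg15, although Isg15 was at 0.26 when scaled to germ cell markers. Ddx58 was at 9.01, 13.9 and 11.0 FPKM in MIR and at 33.7, 50.4 and 44.2 FPKM in MC, a change of -1.83 ± 0.16 (adjusted p = 5.64e-06). Of 20 glycolysis genes 6 were higher and 8 lower, near the 28.3% and 33.3% of all genes, with a median of 0.03, or 0.10 above that of all genes. Ldha, a lactate dehydrogenase, was at 88.6, 47.1 and 74.0 FPKM in MIR and at 13.3, 9.28 and 11.46 FPKM in MC, a change of 2.49 ± 0.23 (adjusted p = 7.27e-06). Slc2a3, a glucose transporter of germ cells, was at 7.70, 14.998 and 11.0 FPKM in MIR and at 32.0, 35.8 and 33.1 FPKM in MC, a change of -1.54 ± 0.17 (adjusted p = 2.65e-05). Over the MIR libraries, Ldha was lowest and Slc2a3 highest in MIR2.

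Of 20 tested cholesterol synthesis genes, 8 were higher (against 28.3% of all genes), 1 was lower (Sqle, against 33.3%) and 11 did not pass. The median was 0.31, or 0.39 above that of all genes. MIR2 was the lowest MIR library for 19 of the 20, and with MIR2 alone the median was -0.07. The 8 higher genes became 14 without MIR2, 4 without MIR1, MIR3 or MC3, and 5 without MC2. Without MIR3, 2 were lower. Nsdhl, a sterol dehydrogenase, was at 43.2, 23.3 and 44.95 FPKM in MIR and at 14.6, 16.6 and 17.4 FPKM in MC, a change of 1.10 ± 0.20 (adjusted p = 0.000584). Of 31 replication-dependent histone genes 6 were tested. Hist1h1c, Hist1h2bc and Hist2h3c1 were higher, with changes of 2.17 ± 0.18, 1.91 ± 0.27 and 1.55 ± 0.18 (adjusted p = 4.64e-06, 0.000106 and 2.73e-05), and Hist1h3c was lower, with a change of -1.18 ± 0.18 (adjusted p = 0.000188). Reads of near-identical histone genes may have been split among them.

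The 15 largest rises were Defb19, Cst9, Cst8, Aldh1a1, Clu, Cpe, Gja1, Gatm, Ptgds, Hsd17b3, Amh, Serpine2, Tesc, Mt3 and Akr1cl, with changes from 5.15 down to 4.55. In all 15 MIR2 was the lowest MIR library. Amh (chr10:80805243-80807648, plus strand), the anti-Müllerian hormone that Sertoli cells secrete, was at 846, 252 and 876 FPKM in MIR and at 15.1, 28.0 and 24.8 FPKM in MC, a change of 4.64 ± 0.38 (adjusted p = 3.76e-06). Cst9, a cystatin of Sertoli cells, was at 1671, 487 and 1471 FPKM in MIR and at 22.3, 34.9 and 45.1 FPKM in MC, a change of 4.98 ± 0.40 (adjusted p = 3.39e-06). MIR1 was at 3.36 times MIR2 for Amh and at 3.43 times for Cst9, and MIR2 was still at 9.01 and 10.8 times the highest MC library. Defb19, a beta-defensin gene, was at 1186, 284 and 1220 FPKM in MIR and at 11.6, 23.7 and 28.5 FPKM in MC.

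All 20 Sertoli markers were higher in MIR, also with MIR2 alone, with medians of 4.02 and 3.01, or 4.10 and 3.09 above that of all genes. Sox9, the transcription factor that sets Sertoli fate, was at 21.4, 7.01 and 17.0 FPKM in MIR and at 0.488, 1.06 and 0.903 FPKM in MC, a change of 3.04 ± 0.30 (adjusted p = 1.1e-05). Dhh, the hedgehog ligand of Sertoli cells, was at 124, 39.8 and 109 FPKM in MIR and at 2.07, 2.74 and 2.85 FPKM in MC, a change of 4.55 ± 0.32 (adjusted p = 1.66e-06). Markers of other somatic cells were lower in level. Leydig markers summed to 62.5 to 86.5 FPKM in MIR and 48.0 to 48.9 FPKM in MC, with 5 of 7 tested higher, and macrophage markers summed to 13.8 to 33.6 FPKM in MIR and 6.15 to 8.31 FPKM in MC, with 6 of 7 higher. Stromal markers summed to 30.5, 74.0 and 47.4 FPKM in MIR and 14.2, 31.8 and 25.5 FPKM in MC, with 5 of 7 higher, and here MIR2 was the highest library. The 5 higher stromal markers became 3 without MIR2, MIR3 or MC1. Of 6 tested pregranulosa markers 4 were higher, Kitl, Lgr5, Wnt4 and Nr2f1. The others, Fst and Rspo1, changed by -0.53 and -0.46 and did not pass. With library weights, and under quantile normalization, 2 of the 6 were lower. Of 5 endothelial markers 2 were higher and 2 lower, and of 4 erythroid markers 1, Alas2, was higher. Of all genes tested 28.3% were higher and 33.3% lower, so the endothelial and erythroid counts say little. Many of the somatic markers were low in MC, and such a marker can pass the filter through the MIR libraries alone. With no filter, 5 of 10 Leydig, 7 of 9 macrophage, 6 of 14 stromal and 4 of 12 pregranulosa markers were higher. At a filter of FPKM 5, 0 macrophage markers were tested. The part of these cells in the other changes was not tested.

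Rises that did not follow the Sertoli markers were looked for after the values were seen. Of 636 named genes that were higher by more than 4-fold without overlap, MIR2 was not the lowest MIR library for 32. The 32 include the p53 targets Btg2, Plk2, Perp and Eda2r. Cald1, which encodes the actin-binding caldesmon, was at 32.4, 41.8 and 35.5 FPKM in MIR and at 3.90, 4.08 and 3.76 FPKM in MC, a change of 2.93 ± 0.13 (adjusted p = 4.1e-08). Zfp365, a zinc finger gene known in human cells as a p53 target that guards fragile sites, was at 16.8, 26.9 and 22.5 FPKM in MIR and at 2.87, 2.03 and 2.08 FPKM in MC, a change of 2.78 ± 0.21 (adjusted p = 2.19e-06). Plcd4, a phospholipase C, was at 6.46, 6.74 and 6.83 FPKM in MIR and at 0.245, 0.203 and 0.252 FPKM in MC, a change of 2.64 ± 0.15 (adjusted p = 4.34e-07). Mcam, a cell adhesion molecule, was at 112, 140 and 133 FPKM in MIR and at 20.9, 22.6 and 23.2 FPKM in MC, a change of 2.47 ± 0.18 (adjusted p = 1.95e-06). In these 4 genes the highest MIR library was at 1.29, 1.60, 1.06 and 1.25 times the lowest, against 3.43 times for the summed Sertoli markers. They were chosen because MIR2 was not their lowest library, so an order unlike that of the Sertoli markers follows from the choice. The part of the Sertoli RNA in these genes was not tested.

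**Figure D4:**
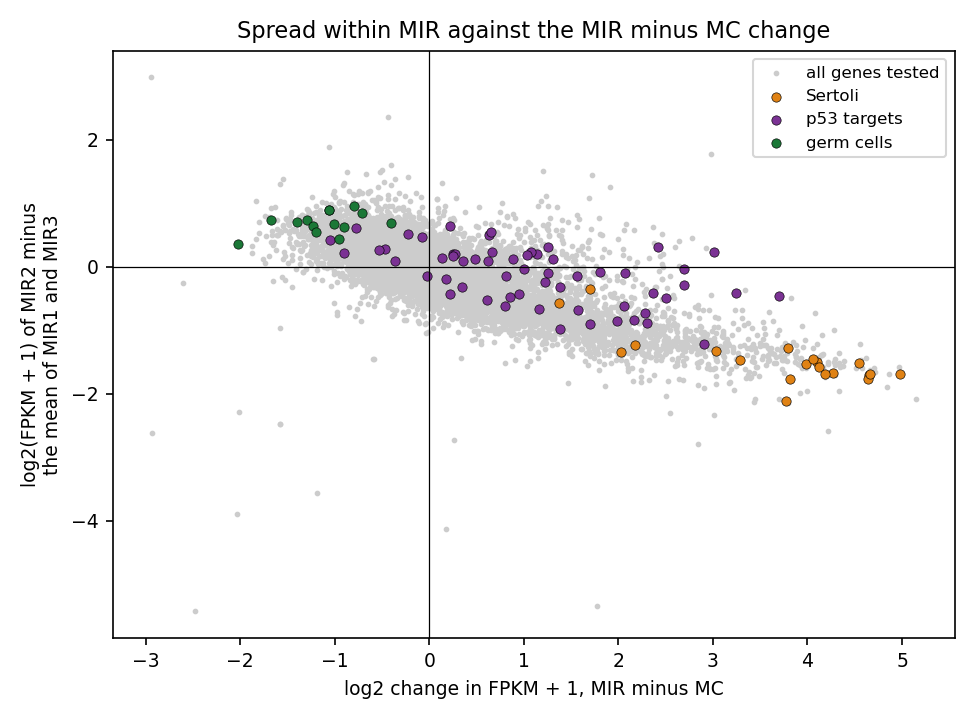
For each tested gene, the log2 change MIR minus MC (x axis) and the log2(FPKM + 1) of MIR2 minus the mean of MIR1 and MIR3 (y axis); grey, all 11891 genes; orange, Sertoli markers; purple, p53 targets; green, germ cell markers. The y-axis medians are -1.53 for Sertoli markers, 0.70 for germ cell markers, -0.08 for p53 targets and -0.01 for all genes.

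The 15 largest falls were Hesx1, Dnd1, Cthrc1, Khdc3, Hmga1, Ddx58, Krt222, Gdf3, Bnc2, Lmo1, Lefty2, Otx2, Rimbp2, Pdlim3 and Pax6, with changes from -2.60 up to -1.67. Several encode transcription factors of early development, among them the homeobox genes Hesx1, Otx2 and Pax6. Hesx1 (chr14:26994416-27002329, plus strand) was at 1.45, 1.41 and 2.40 FPKM in MIR and at 9.07, 20.2 and 19.9 FPKM in MC, a change of -2.60 ± 0.26 (adjusted p = 1.06e-05). Khdc3, of the subcortical maternal complex, was at 3.35, 4.40 and 3.95 FPKM in MIR and at 16.1, 16.7 and 18.0 FPKM in MC, a change of -1.87 ± 0.13 (adjusted p = 1.8e-06). Otx2 was at 3.39, 6.13 and 4.85 FPKM in MIR and at 11.9, 21.9 and 21.4 FPKM in MC, a change of -1.73 ± 0.24 (adjusted p = 0.000103). In Hesx1 and Khdc3 the MIR libraries differed less from one another than the germ cell markers did. Scaling to germ cell markers adds about 1.12 to every change, so falls of this size could not turn positive. Bnc2, Lmo1, Otx2 and Rimbp2 no longer passed the test on that scale.

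The female libraries of the same table share no samples with the male ones, so the change FIR minus FC was set beside MIR minus MC and the difference tested in the same fit. The difference passed for 857 genes, or 7.21% of those tested, with the male change above the female one for 595 and below it for 262. Without MIR2 these counts were 1643 and 847, and without any other single male library they were 318 to 402 and 127 to 174. Somatic and germ cell markers moved in the female libraries too. Pregranulosa markers summed to 357.3, 148.2 and 136.9 FPKM in FIR1, FIR2 and FIR3 against 8.91 to 10.1 FPKM in FC. They summed to 31.2 to 86.2 FPKM in MIR against 4.77 to 6.76 FPKM in MC, although Fst and Rspo1 were not higher in MIR. Germ cell markers summed to 2088, 3221 and 3178 FPKM in FIR and to 4081 to 4346 FPKM in FC. The part of these markers in the differences between the sexes was not tested. Among p53 targets the female median was 0.84, with 42 of the 59 higher and 3 lower. Of all 11891 genes tested, 2409 were higher and 2854 lower in FIR than in FC. The change differed between the sexes for 4 of the 59 p53 targets, Pmaip1, Perp, Fuca1 and Sesn2, near the 7.21% of all genes. Pmaip1, lower in MIR except when scaled to germ cell markers, was higher in FIR by 1.43 ± 0.30, a difference of -2.21 ± 0.43 (adjusted p = 0.00993). Perp and Fuca1, a lysosomal fucosidase, rose more in MIR, with differences of 1.36 ± 0.30 and 1.53 ± 0.26 (adjusted p = 0.0178 and 0.00612), and Sesn2, a stress-induced sestrin, rose less, with a difference of -0.73 ± 0.15 (adjusted p = 0.0131). The adjusted p of the Perp difference was 0.0533 without MC3.

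For Ercc5 the male change exceeded the female change of 1.07 by 0.97 ± 0.17 (adjusted p = 0.00614). Ccnd1 and Id1, which were higher in MIR, changed by 0.10 and -0.01 in the female libraries, and the differences were 1.48 ± 0.27 and 2.52 ± 0.53 (adjusted p = 0.008 and 0.0145). Of the genes named above for the Nodal signal, Lefty1, Lefty2 and Nodal differed between the sexes, whereas Gdf3 and Tdgf1 did not pass (adjusted p = 0.145 and 0.143). Lefty1 changed by 0.12 and Nodal by 0.56 in the female libraries, giving differences of -1.45 ± 0.27 and -1.15 ± 0.23 (adjusted p = 0.00825 and 0.0116). Lefty2 gave a difference of -1.43 ± 0.33 (adjusted p = 0.0228). The adjusted p of the Lefty2 difference was 0.0532, 0.0598 and 0.058 without MIR3, MC1 and MC3. The male changes of Nodal and Fgfr2 were at 0.53 and 0.0097 when scaled to germ cell markers. Fgfr2, a receptor for fibroblast growth factors, gave a difference of -2.02 ± 0.32 (adjusted p = 0.00488). Cdkn1b changed by 2.75 in the female libraries against -0.15 in the male ones, a difference of -2.90 ± 0.47 (adjusted p = 0.00481).

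**Figure D5:**
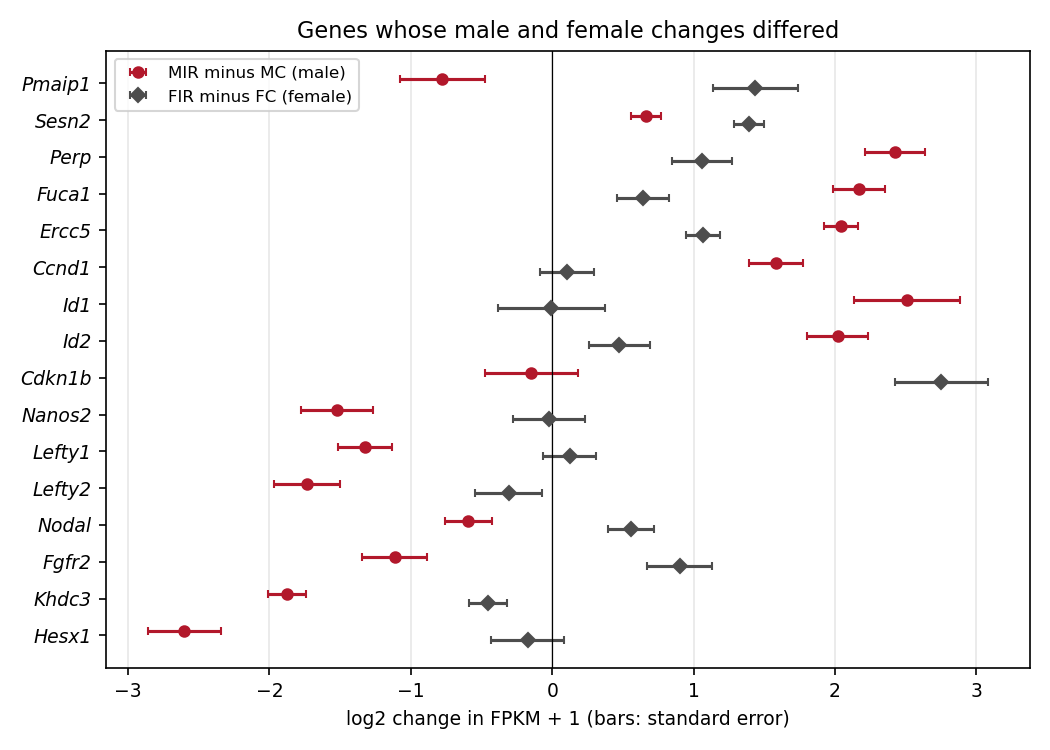
The log2 change in FPKM + 1 with its standard error for 16 genes whose male and female changes differed at an adjusted p below 0.05, MIR minus MC as red circles and FIR minus FC as grey diamonds. Pmaip1 lies at -0.78 in the male and 1.43 in the female comparison, and Cdkn1b lies at -0.15 and 2.75.

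Of the 20 Sertoli markers 12 differed between the sexes, all with the larger change in MIR. Amh changed by 0.24 and Dhh by 0.44 in the female libraries, and the differences were 4.41 ± 0.54 and 4.10 ± 0.45 (adjusted p = 0.00136 and 0.00103). The pregranulosa genes Fst and Rspo1, of follistatin and a WNT agonist, differed the other way, by -4.80 ± 0.41 and -3.44 ± 0.43 (adjusted p = 0.000576 and 0.00141). By limma 0 mitotic genes differed between the sexes, or 2 at an unadjusted p below 0.05, and 1 G1/S gene, Ccnd1, differed. That these tests missed the threshold does not show equal changes.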

How the data were processed

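RNA-seq values were analysed for the 6 male E13.5 libraries, MIR1 to MIR3 and MC1 to MC3, with the 6 female ones of the same table. The authors deposited FPKM per gene in that table, per the file headers, normalised within each library and with no counts. The mouse build mm10 is named in the submitters' processing notes, while for the aligner, counter and gene annotation the sources used here give nothing. The E11.5 table was not used here.

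Groups were taken from the column codes. A gene was kept where 3 or more of the 6 male libraries reached an FPKM of 1. In the table, 27 genes have a number where a symbol should stand. FPKM were transformed to log2(FPKM + 1), which understates the change of genes at low levels. All 4 groups entered 1 limma fit (trended empirical Bayes, limma 3.58.1 in R 4.3.3), from which MIR minus MC, FIR minus FC and their difference were tested, two-sided. P-values were Benjamini-Hochberg adjusted over all 11891 genes, and 0.05 was the threshold. Every adjusted p, and every SE, comes from that fit or the named variant of it, and n is 3 per group unless a library is left out. The fit was tested on simulated data. Python 3.11.15, numpy 2.4.6, pandas 2.3.3 and matplotlib 3.10.9 made the summaries and plots.

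The members and gene lists were chosen with earlier results of these data known. The genes named are the 15 largest rises and 15 largest falls without overlap between groups (predicted genes and small RNAs left out), up to 4 called members per list with the smallest adjusted p, a set of fixed names, and genes marked as named after their values were seen. A few further genes are named to complete a small count, and results for some genes are not reported here. Gene positions come from GENCODE M21 on GRCm38, where 164 of 166 named genes were matched.

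Depth is not given with FPKM. It was estimated from genes with transcripts of at least 3000 bases and an FPKM of at most 0.3, as the fragment total that makes most of these values whole multiples of 1 fragment within 0.1 fragments. Between 63.9 and 70.1% of the values were whole in a library, too few to recover counts, so the estimate is approximate and no count test was run. The precision of a value is therefore given by the spread between libraries alone.

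Promoter windows came from RefSeq on GRCm38.p6 and were matched to genes by symbol. Alternatives were pseudocounts of 0.1 and 0.5, no filter and a filter at FPKM 5, estimated library weights, scaling to the median, quantile normalization, robust moderation, a fit of the male libraries alone, a replicate block and leaving out each male library in turn. MIR2 alone and scaling to germ cell markers were added after seeing the data.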

Additional observations from a re-analysis of the deposited data

Results flagged for a closer look

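For the genes below, the change MIR minus MC differed from the change FIR minus FC at an adjusted p below 0.05 in the same limma fit. The 2 comparisons share no libraries. Each value is the male change minus the female change on the log2(FPKM + 1) scale, and the share of all tested genes with such a difference was 7.21%.

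The Sertoli genes named next had larger male changes, as did 12 of the 20 markers. The differences were 4.41 for Amh, 4.66 for Hsd17b3, 4.62 for Tesc, 4.37 for Ptgds and 4.10 for Dhh. They were 3.29 for Cst9, 3.17 for Serpine2, 3.13 for Mt3, 3.02 for Cyp26b1 and 2.39 for Sox9. The pregranulosa genes had differences of -4.80 for Fst, -3.44 for Rspo1 and -1.79 for Wnt4. The Y-linked gene Ddx3y, with no female partner to compare, had a difference of 1.23, and the erythroid gene Alas2 had one of 2.16.

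The male change was below the female one for the genes named next, although by limma 0 of 14 germ cell markers differed, or 3 at an unadjusted p below 0.05, and 3 of 30 pluripotency genes did. For Nodal signalling and male differentiation the differences were -1.45 for Lefty1, -1.43 for Lefty2, -1.15 for Nodal, -2.02 for Fgfr2 and -1.50 for Nanos2. Among the largest falls they were -2.43 for Hesx1, -1.24 for Otx2, -2.39 for Lmo1, -2.15 for Cthrc1, -1.88 for Bnc2, -1.42 for Khdc3 and -1.24 for Krt222.

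For the named genes of the cell cycle, p53, repair and interferon lists the differences went both ways. They were -2.90 for Cdkn1b, -2.21 for Pmaip1, -0.73 for Sesn2 and -1.09 for Isg15, and on the other side 1.48 for Ccnd1, 0.97 for Ercc5, 1.36 for Perp and 1.53 for Fuca1. For 2 targets of BMP signalling and a secreted protein they were 2.52 for Id1, 1.54 for Id2 and 2.85 for Ctgf. For metabolic genes they were 1.18 for Ldha and 1.53 for Nsdhl. For histone genes they were 1.26 for Hist1h1c, 2.06 for Hist1h2bc, 1.20 for Hist2h3c1 and -0.92 for Hist1h3c.

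Of the 44 differences, 27 missed the threshold when scaled to germ cell markers, 20 with MIR2 alone, 10 at a pseudocount of 0.1 and 8 under quantile normalization, and none changed sign. Several also missed it when 1 male library was left out. Their adjusted p by limma was 0.0532, 0.0598 and 0.058 without MIR3, MC1 and MC3 for Lefty2, 0.111, 0.0936, 0.106 and 0.127 without MIR1, MIR3, MC2 and MC3 for Otx2, 0.0725, 0.0849, 0.0624 and 0.0888 without MIR1, MIR3, MC2 and MC3 for Isg15. It was 0.103, 0.109, 0.0592, 0.102 and 0.0951 without MIR1, MIR3, MC1, MC2 and MC3 for Ldha, 0.0609, 0.12, 0.0738 and 0.0653 without MIR1, MIR3, MC1 and MC3 for Hist1h3c, 0.06 without MC3 for Wnt4. It was 0.055, 0.0636, 0.061 and 0.0525 without MIR1, MIR3, MC1 and MC3 for Alas2, 0.0627, 0.0613 and 0.0716 without MIR1, MIR3 and MC3 for Nanos2. It was 0.0533 without MC3 for Perp.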

How the results depend on the processing

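Of 3370 genes higher and 3960 lower in MIR, the counts stayed within 1.5 times under every alternative except 3. A filter at FPKM 5 left 1993 higher. MIR2 alone against MC gave 1872 higher and 1673 lower, and scaling to germ cell markers gave 9992 higher and 20 lower. Leaving out 1 male library gave 2875 to 3765 higher and 3255 to 4199 lower. Of calls, 46.0% were higher as deposited, 38.6% after quantile normalization and 37.8% after median scaling, which moved the median of all genes by -0.13. The counts that differed from the female comparison moved more. Against 595 above and 262 below, they were 320 and 153 at FPKM 5, 2769 and 2434 with library weights, 224 and 79 with MIR2 alone, and 100 and 7 scaled to germ cell markers. Leaving out 1 male library gave 318 to 1643 above and 127 to 847 below, the upper ends without MIR2. The library weights were 0.13 for MIR2 and 0.17 for FIR1, against 0.53 to 3.10 for the other male libraries. The cause of these moves was not tested.

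Scaling to germ cell markers changed the sign of 32 named genes, to values of Plk1 0.33, Ncapd2 0.22, Kif2c 0.25, Cdca8 0.17, Cdk2 0.39, Rnf8 0.37, Apex1 0.39, Zglp1 0.20, Isg15 0.26, Pkm 0.35, Pecam1 0.093, Eif2s3y 0.70, Trp53 0.13, Pmaip1 0.35, Pou5f1 0.067, Sox2 0.16, Dazl 0.059, Ddx4 0.12, Nanos3 0.17, Sycp3 0.32, Ccnb1 0.38, Cdk1 0.80, Atm 0.46, Prdm1 0.078, Fbxo22 0.22, Xpc 0.59, Ascc3 0.65, Dcp1b 0.76, Ccnb2 0.23, Top2a 0.45, Nodal 0.53 and Fgfr2 0.0097. Of 142 named genes in these fits, 22 lost their call with MIR2 alone, among them Pou5f1, Sox2, Dazl, Ddx4 and Bbc3. Under each of the other settings with all libraries (filters, pseudocounts, normalizations, weights, robust moderation, males alone), 0 to 6 lost it and none changed sign. At the filter of FPKM 5 only 122 of the 142 were tested. No cause was tested.

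With the replicate number as a replicate block in the male libraries alone, 2786 genes were higher and 2905 lower, and 5 named genes lost their call. With the replicate block within each sex, 365 differences were above and 131 below, and 7 of the 44 named differences missed the threshold. Deviations of replicates of the same number had correlations across genes of -0.21, -0.15 and -0.01 for numbers 1, 2 and 3. For unlike numbers the correlations ran from -0.08 to 0.20. Deviations within a group of 3 libraries sum to 0, so this check cannot decide whether the numbers pair the samples.

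With 3 libraries per group and no counts, values below 1 FPKM rest on few fragments. The labels conflict on which group was irradiated, cells were not counted, and germ cell and Sertoli RNA differ between the groups, so composition and level per cell cannot be told apart.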

Other observations

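A set of genes with the highest level in MIR3 went beyond the early response genes described above, and was named after its values were seen. Cyr61, a matricellular protein induced by growth signals, was at 34.7, 44.7 and 115 FPKM in MIR1, MIR2 and MIR3 and at 1.62, 4.13 and 3.93 FPKM in MC, a change of 3.83 ± 0.51 (adjusted p = 7.32e-05). Ctgf, a related secreted protein, was at 15.1, 16.9 and 29.4 FPKM in MIR and at 2.78, 5.08 and 3.34 FPKM in MC, a change of 2.15 ± 0.26 (adjusted p = 3.9e-05). Fosb, a partner in AP-1, was at 5.21, 5.79 and 24.4 FPKM in MIR and at 0.481, 0.878 and 0.774 FPKM in MC. The groups did not overlap in these 3 genes, as was so for 65.8% of all genes tested. Phlda3, a p53 target that restrains AKT, was at 61.3, 44.2 and 63.7 FPKM in MIR and at 10.5, 7.94 and 8.71 FPKM in MC, a change of 2.50 ± 0.18 (adjusted p = 2.1e-06), with MIR2 the lowest MIR library.

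Markers of interstitial cells did not share 1 order over the MIR libraries. Hsd3b1, a steroid dehydrogenase of Leydig cells, was at 14.9, 6.92 and 11.0 FPKM in MIR and at 0.626, 1.31 and 0.903 FPKM in MC, lowest in MIR2 among the MIR libraries. Col3a1, a collagen of the stroma, was at 3.63, 17.6 and 9.004 FPKM in MIR and at 0.731, 3.33 and 2.17 FPKM in MC, and Tek, an endothelial receptor, was at 3.89, 8.63 and 5.59 FPKM in MIR and at 1.21, 1.41 and 1.16 FPKM in MC. Both were highest in MIR2, and all 3 genes were called higher in MIR. Pecam1, an adhesion protein of endothelial cells that germ cells also carry, was instead lower, at 28.9, 59.9 and 35.5 FPKM in MIR and at 85.2, 81.4 and 79.1 FPKM in MC. Pkm, the pyruvate kinase of glycolysis, was at 313, 418 and 324 FPKM in MIR and at 646, 552 and 599 FPKM in MC, also lower as measured. Scaled to germ cell markers, Pecam1 and Pkm changed sign, to 0.093 and 0.35.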
